A study of Mus musculus with 12 samples.

Results

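The proteasome genes described here are the 51 protein-coding genes whose symbol starts with Psma, Psmb, Psmc, Psmd, Psme, Psmf or Psmg, of 21887 protein-coding genes in the RefSeq table of the same genome build. They carried 35 of 22284 Hoxb13 peaks and 27 of 30534 Meis1 peaks, by the gene that the authors assigned to each peak. The symbol rule looks at names only, so no peak value chose single genes within the family. The family itself was chosen with earlier results of these data known. It also takes Psmc3ip, a meiotic recombination cofactor named for binding a proteasome ATPase, as well as Psme2b and Psme3ip1, none of which is counted as a proteasome subunit. The other 48 genes encode subunits, activators, an inhibitor or assembly chaperones. Another 6 genes with the prefix are pseudogenes, had no peak in either list and are not counted.

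The study mapped where the homeodomain transcription factors Hoxb13 and Meis1 lie on chromatin of CD-1 mouse ventricles at postnatal day 15. Its 12 libraries form 4 groups of 3, all from CD-1 hearts for which the labels name no mutation or treatment: Hoxb13 precipitates (antibody GTX129245), their inputs, Meis1 precipitates (antibody sc-10599X), and their inputs. By the protocol, the sheared chromatin of each heart was divided between the antibodies, but the titles number the Hoxb13 libraries 4 to 6 and the Meis1 libraries 1 to 3. Whether the lists share hearts is thus not shown. The deposited values are 2 peak lists, 1 per factor over its 3 libraries, so there is no value per heart, no spread between replicates and no test. All counts below describe these 2 lists. Counts of genes are set beside the same count over all protein-coding genes. Classes, distances and strengths of peaks are set beside the whole list, which also holds peaks not assigned to protein-coding genes. Of the whole lists, 19738 of 22284 Hoxb13 peaks and 24758 of 30534 Meis1 peaks were assigned to protein-coding genes. The lists hold no read counts, so depth is unknown and no counting interval is given.

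The 26S proteasome degrades proteins that carry ubiquitin chains. Its 20S core is a barrel of alpha rings, which gate the entry, around beta rings, which hold the proteolytic sites. The 19S cap binds the barrel, with an ATPase ring that unfolds substrates and a lid that recognises and removes ubiquitin. In other settings, subunit genes are known to be induced together by the transcription factor Nfe2l1, which acts through antioxidant response elements in their promoters. Heart muscle relies on the system for turnover of sarcomere proteins. Meis1 and Hoxb13 are known from mouse studies as factors that act in the cell cycle exit of heart muscle cells after birth.

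Hoxb13 peaks at proteasome genes lay mostly at the start of the gene, and Meis1 peaks mostly far from it. A promoter peak here is one in the authors' promoter class, which reaches 1 kb either side of a start site. The windows below were chosen because they are the stretches around start sites, 250 bases before to 50 after, of the 3 members with the strongest Hoxb13 promoter peaks and of 3 members with a Meis1 promoter peak. They are RefSeq sequence of build GRCm38.p6, written 5′ to 3′ on the strand of the gene, with the start site just after base 250. Capitals mark each match, on either strand, to TGACNNNGC (the core of the antioxidant response element), CCAAT (the box bound by NF-Y), TGACAG (the Meis core) and CCGGAAG (an ETS core). The windows lie at chr14:55591052-55591351 on the minus strand for Psme2, chr12:70974373-70974672 on the plus strand for Psma3 and chr14:55578244-55578543 on the plus strand for Psme1. Those with Meis1 lie at chr3:95042565-95042864 on the minus strand for Psmd4, chr14:45329574-45329873 on the plus strand for Psmc6 and chr7:29180624-29180923 on the minus strand for Psmd8.
Psme2: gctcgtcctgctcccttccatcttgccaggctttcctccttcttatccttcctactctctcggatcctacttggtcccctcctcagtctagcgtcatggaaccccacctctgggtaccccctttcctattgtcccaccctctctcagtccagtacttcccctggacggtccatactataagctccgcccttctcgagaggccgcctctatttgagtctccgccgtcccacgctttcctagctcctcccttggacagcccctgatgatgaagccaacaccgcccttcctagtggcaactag
Psma3: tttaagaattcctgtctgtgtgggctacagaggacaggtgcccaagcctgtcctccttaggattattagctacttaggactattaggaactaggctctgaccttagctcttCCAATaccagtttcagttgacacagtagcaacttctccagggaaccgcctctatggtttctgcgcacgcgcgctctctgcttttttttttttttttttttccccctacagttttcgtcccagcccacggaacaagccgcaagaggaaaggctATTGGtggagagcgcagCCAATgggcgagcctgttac
Psme1: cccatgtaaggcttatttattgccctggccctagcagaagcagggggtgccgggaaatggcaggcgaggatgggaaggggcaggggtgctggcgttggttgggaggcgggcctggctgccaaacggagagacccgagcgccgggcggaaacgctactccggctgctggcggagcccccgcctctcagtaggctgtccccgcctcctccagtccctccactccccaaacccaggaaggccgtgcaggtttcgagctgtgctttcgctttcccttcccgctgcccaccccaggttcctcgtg
Psmc6: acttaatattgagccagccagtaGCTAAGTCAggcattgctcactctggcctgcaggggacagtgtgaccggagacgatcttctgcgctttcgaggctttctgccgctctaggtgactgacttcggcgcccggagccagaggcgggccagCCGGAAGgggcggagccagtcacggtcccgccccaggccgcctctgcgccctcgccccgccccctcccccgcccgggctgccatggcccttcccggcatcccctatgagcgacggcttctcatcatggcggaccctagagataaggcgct
Psmd4: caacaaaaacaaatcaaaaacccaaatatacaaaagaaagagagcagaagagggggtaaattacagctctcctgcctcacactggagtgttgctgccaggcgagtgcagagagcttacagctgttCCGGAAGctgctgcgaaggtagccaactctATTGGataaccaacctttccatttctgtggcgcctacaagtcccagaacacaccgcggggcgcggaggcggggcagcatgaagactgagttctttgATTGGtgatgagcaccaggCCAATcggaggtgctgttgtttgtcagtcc
Psmd8: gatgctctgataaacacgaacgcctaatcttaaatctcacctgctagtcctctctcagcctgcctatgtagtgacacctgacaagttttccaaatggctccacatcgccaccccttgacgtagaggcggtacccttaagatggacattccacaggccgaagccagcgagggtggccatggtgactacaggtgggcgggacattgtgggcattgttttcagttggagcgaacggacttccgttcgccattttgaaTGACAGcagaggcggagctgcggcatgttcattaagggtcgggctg

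The Hoxb13 peak of Psme2 covered bases 1 to 107 of its window, and that of Psme1 covered bases 155 to 300. Neither window held a match to a capitalised motif. Psma3 was covered by its Hoxb13 promoter peak only at bases 268 to 300, where 1 CCAAT match begins at base 281, and 2 more begin at bases 112 and 264. Psmd4 was covered by both factors, by Hoxb13 at bases 85 to 300 and by Meis1 at bases 1 to 255. Its CCGGAAG match at base 126 and its CCAAT match at base 156 stand in the stretch that both peaks covered, and further CCAAT matches begin at bases 252 and 271. In Psmc6 the Meis1 peak covered bases 143 to 300, with CCGGAAG at base 151 inside it and TGACNNNGC at base 24 outside it. In Psmd8 the Meis1 peak covered bases 120 to 300, and the TGACAG match at base 255 lies 4 bases after the start site, inside the peak. A match is a run of letters only, not a binding site.

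Hoxb13 peaks were assigned to 26 of the 51 proteasome genes (51%), beside 44.4% of all protein-coding genes. At the promoter the count was 21 genes (41.2%), beside 30.7% of all genes. Meis1 peaks were assigned to 18 members (35.3%), beside 38.2%. Only 4 members had a Meis1 promoter peak, Psma8, Psmc6, Psmd4 and Psmd8 (7.84%), beside 8.16% of all genes. Both factors were assigned to 13 members (25.5%), beside 23.9%. A Hoxb13 and a Meis1 peak overlapped by at least 1 bp at 2 members, Psmb10 and Psmd4 (3.92%), beside 6.11% of all genes.

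The Hoxb13 promoter count stood above the share over all genes, and the Meis1 counts stood near or below it. Proteasome promoters are rich in CpG: the median window of a member held 19 CpG, against 13 over all windows. Within the members, windows over a Hoxb13 peak and those without one both had a median of 19, against 24 and 8 over all windows. Among genes with a window of at least 10 CpG, 18 of 40 members (45%) had a Hoxb13 promoter peak, beside 47.6% of all such genes. Among those genes the members' share was thus not above that of all. This class was not matched in CpG content, as its member windows had a median of 19.5 CpG and all its windows 23. Member genes were also shorter, with a median length of 11.6 kb against 17.2 kb. Among genes no longer than the median, 12 of 33 members (36.4%) had a Hoxb13 promoter peak, beside 23.1%. Both splits were made after the values were seen. The part of CpG content in the count was not tested beyond them.

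The alpha ring had the most Hoxb13 peaks of the core, in 6 of 8 genes, 4 of them at the promoter. Psma3, an alpha ring subunit, was the only one with 3. Its promoter peak (strength 38.4, rank 1859) began 17 bp after the start. Strength is the authors' value per peak and is used only within a list, where the Hoxb13 values ran from 17.8 to 697 and the Meis1 values from 15.6 to 552. The other two Psma3 peaks overlapped each other by 195 bp. They had strengths of 45.9 and 34.7 and lay 5984 and 5783 bp before the start of the assigned transcript. The first of them, at chr12:70968244-70968639, was the strongest Hoxb13 peak of any member (rank 1021). The RefSeq model of Psma3 reaches further upstream, so that both peaks lay 644 and 443 bp from it. They also lay 481 and 280 bp from a lysine tRNA gene (n-TKctt17).

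Psma4 had a Hoxb13 promoter peak of strength 25.1 that ended 21 bp before the start. Its Meis1 peak, strength 23.7, lay 8406 bp upstream in intron 4 of the neighbour Hykk. A further Hoxb13 peak (strength 22.1) spanned the Psma4 start but was assigned to AY074887, a coding gene that overlaps it. Psma1 had a Hoxb13 peak of strength 24.1 across its start, and Psma6 had one of 19.01 ending 60 bp before it. Both lacked a Meis1 peak.

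Psma7 had no promoter peak of its own. Its Hoxb13 peak (strength 24.1) lay in exon 6 of 7, and its Meis1 peak (33.8, rank 4446) lay beyond the gene in the 3′ UTR of Lsm14b. A Hoxb13 peak of strength 22.7 stood 405 bp from the Psma7 start and was assigned to Ss18l1, whose start lies 19 bp away on the opposite strand. Psma8, the alpha subunit known from the testis proteasome, had a Hoxb13 peak of 19.7 and a Meis1 peak of 19.2 in its intron 1. It also had a Meis1 peak of 17.9 across the start. Psma2 and Psma5, the remaining alpha ring genes, had no peak of either factor.

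Of the constitutive beta ring genes, 2 of 7 had a Hoxb13 peak and 2 of 7 had a Meis1 peak. Those of Hoxb13 were at the promoters of Psmb3 and Psmb7. Psmb3, a non-catalytic beta subunit, had a Hoxb13 peak of strength 24.5 on its start and one of 19.9 beyond its 3′ end, 187 bp from Pip4k2b. Psmb7, which carries the trypsin-like site, had Hoxb13 peaks of 21.5 at 261 bp and 18.9 at 14.6 kb upstream. Its Meis1 peak (19.4) lay 56.9 kb downstream of its start, in the 3′ UTR of Nek6. Psmb1, another non-catalytic beta subunit, had a Meis1 peak of strength 41.5 (rank 3276) past its 3′ end, 13.6 kb from the gene. Psmb5 and Psmb6, which carry the chymotrypsin-like and caspase-like sites, were without a peak in either list, as were Psmb2 and Psmb4.

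Among the inducible and tissue-specific beta genes, Psmb8 and Psmb10 had Hoxb13 promoter peaks. These subunits replace their constitutive counterparts in the immunoproteasome, which cuts peptides for display to T cells. Psmb10 had 3 Hoxb13 promoter peaks, with strengths of 26.7, 20.5 and 19.6. The first lay in the gene body with its summit 1026 bp after the start, the second had its summit at 243 bp, and the last lay 889 bp upstream in the neighbour Lcat. The first overlapped a Meis1 peak of strength 19.4 in exon 4 by 166 bp, at chr8:105937168-105937563 for Hoxb13 and chr8:105937050-105937333 for Meis1. Psmb8 had 2 Hoxb13 peaks of 26.9 and 18.1 that overlapped each other by 160 bp, and the second reached its start. That one was the weakest of all 35. Psmb9, which lies near Psmb8 and shares a start region with Tap1, had none, and neither did Psmb11, the subunit of the thymus.

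The ATPase ring had no Hoxb13 promoter peak in any of its 6 genes, beside 30.7% of all protein-coding genes with one. Psmc1 had a Hoxb13 peak of 21.0 and 2 Meis1 peaks of 31.1 and 15.9 together in intron 12 of the neighbour Nrde2, 4192 to 4992 bp past its own end. The Hoxb13 peak was 34 bp from the stronger of those Meis1 peaks, without an overlap. A further Meis1 peak of Psmc1, strength 31.1, lay 30.3 kb upstream. Psmc3 had a Hoxb13 peak of 23.3 downstream of the gene, 715 bp from Slc39a13. Psmc6 had a Meis1 promoter peak of strength 27.0 (rank 6392) across its start and no Hoxb13 peak. Psmc2 had a Meis1 peak of 16.8 in the last intron of Slc26a5, 27.1 kb from its start. Psmc4 and Psmc5 had none.

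Of the 11 lid and base genes, 5 had a Hoxb13 peak, all with one at the promoter, and 5 had a Meis1 peak. Psmd4, a ubiquitin receptor of the cap, was the only member with promoter peaks of both factors. Its Hoxb13 peak (23.1, rank 8806) and its Meis1 peak (32.5, rank 4764) both spanned the start and overlapped by 171 bp, at chr3:95042385-95042780 and chr3:95042610-95042893. Their summits were 169 bp apart, with that of Hoxb13 at position 31 and that of Meis1 at position -138 from the start. Over all 1791 overlapping pairs of the lists the median summit gap was 160 bp, so the spacing at Psmd4 and that of 174 bp at Psmb10 were near the median.

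Psmd8, a lid subunit, had a Meis1 peak of 27.0 (rank 6400) with its summit 10 bp after the start, and no Hoxb13 peak. Psmd12, also of the lid, had a Hoxb13 peak of 22.1 on its start and a Meis1 peak of 27.1 in the gap 24.9 kb downstream of it. Psmd1, a scaffold of the base, had a Hoxb13 peak of 19.01 on its start. Psmd11, another lid gene, had one of 22.5 with its summit 498 bp into the gene. Psmd6, also of the lid, had a Meis1 peak of 19.2 that lay 1758 bp upstream.

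Psmd7, the lid partner of the deubiquitinase Psmd14, had a Hoxb13 promoter peak of 28.1 (rank 4936). The list also gave it 2 more Hoxb13 peaks and all 5 of its Meis1 peaks at long range. Those of Hoxb13 lay 281 and 359 kb upstream and those of Meis1 79.8 to 447 kb upstream, in a gap without protein-coding genes that ends at Zfhx3. By the RefSeq models, which differ from the transcripts in the authors' annotation, Zfhx3 was nearer than Psmd7 to 1 of these Hoxb13 peaks and to 4 of these Meis1 peaks. The long-range assignment to Psmd7 thus depends on the gene models used. Psmd14 itself, the scaffold Psmd2, and the lid genes Psmd3 and Psmd13 had no assigned peak. A Hoxb13 peak of 30.7 lay 459 bp from the Psmd13 start and was assigned to Sirt3, whose start is 85 bp away on the other strand.

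**Figure D1:**
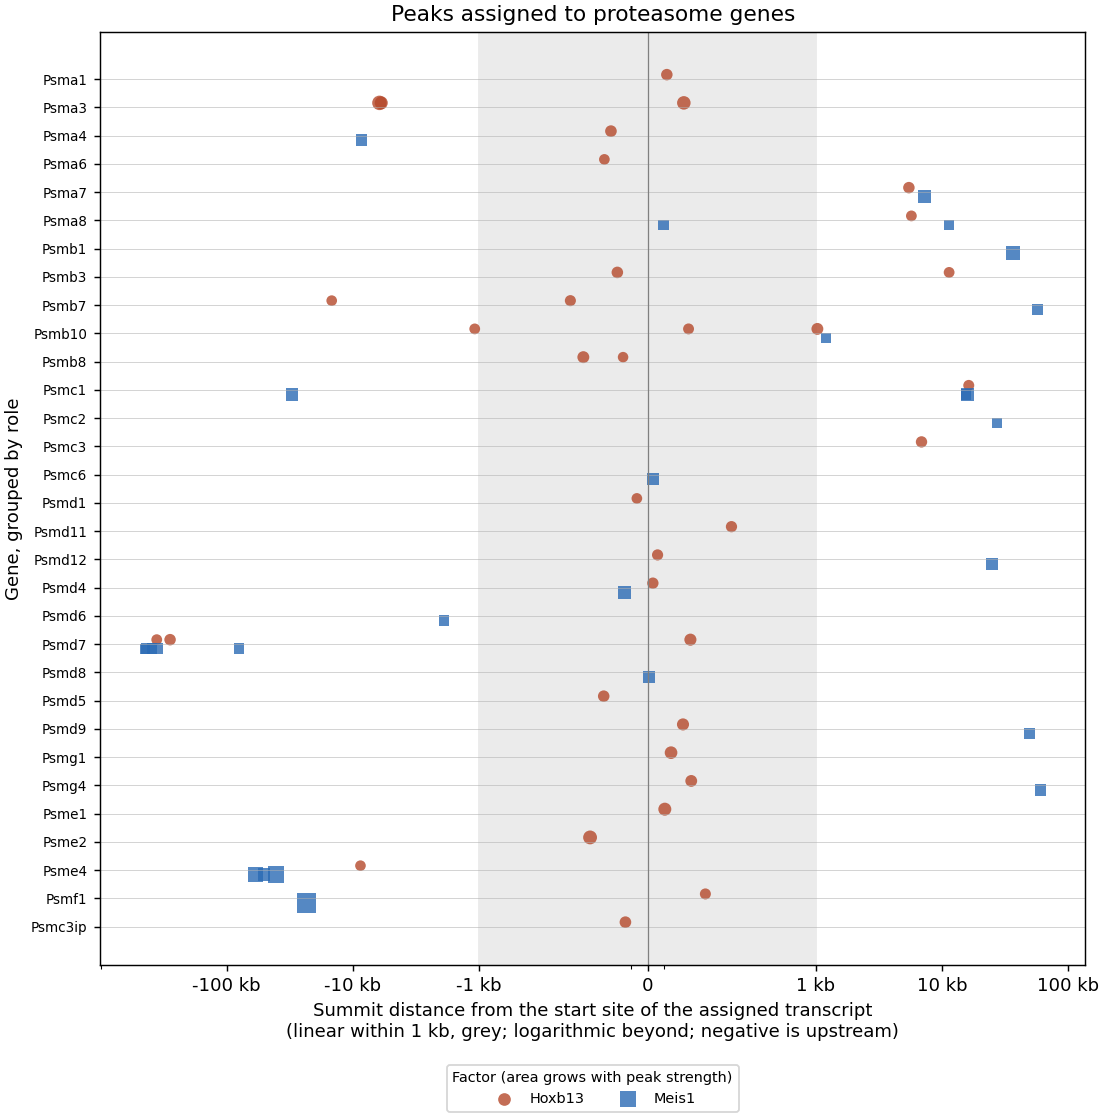
Every peak assigned to a proteasome gene, by the distance of its summit from the start of the assigned transcript (x axis, linear within 1 kb and logarithmic beyond, negative upstream) and by gene, grouped by role (y axis). Red circles are Hoxb13 peaks and blue squares Meis1 peaks, with the area growing with peak strength; 24 of 35 Hoxb13 peaks and 4 of 27 Meis1 peaks are in the promoter class.

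The assembly chaperones of the cap and of the core had Hoxb13 promoter peaks in 2 of 3 and 2 of 4 genes. Psmg1, which pairs with Psmg2 to assemble the alpha ring, had a Hoxb13 peak of 31.9 (rank 3331) across its start. Psmg4, of the other chaperone pair, had one of 26.2 that began 61 bp after the start. Its Meis1 peak (22.6) lay 60.0 kb from the start in intron 1 of Slc22a23. Psmd9, an ATPase chaperone, had a Hoxb13 peak of 28.0 (rank 4971) that began 12 bp after its start and a Meis1 peak of 20.1 that lay 49.2 kb away within Wdr66. Psmd5, also an ATPase chaperone, had a Hoxb13 peak of 24.3 ending 63 bp before its start. Psmd10, known as the oncoprotein gankyrin, had no peak, and neither had Psmg2 and Psmg3.

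Of the activators and the inhibitor, 4 of 5 had a Hoxb13 peak and 2 a Meis1 peak. Psme2 and Psme1 encode the interferon-inducible PA28 cap, which opens the core without ubiquitin. Psme2 had the strongest Hoxb13 promoter peak of any member, at 40.8 (rank 1519), and only Psma3 stood between it and Psme1, at 34.4 (rank 2622). The Psme2 peak lay at chr14:55591245-55591640, 144 bp before the Psme2 start and 73 bp from Rnf31, which starts on the opposite strand. That of Psme1, at chr14:55578398-55578793, spanned the start. A Meis1 peak of strength 148 (rank 416) lay 2719 bp from the Psme1 peak and was assigned to Fitm1. Neither Psme1 nor Psme2 had a Meis1 peak of its own.

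Psmf1, which encodes the proteasome inhibitor PI31, had a Hoxb13 peak of 21.1 with its summit 343 bp into the gene. It also had the strongest Meis1 peak of any member, of strength 93.9 (rank 962). This Meis1 peak lay 23.4 kb upstream of the assigned transcript, at chr2:151764684-151764825 in a stretch without a coding gene. Psme4, the activator PA200 of the nucleus, had a Hoxb13 peak of 18.8 in intron 42 of 46. This peak was assigned to a short transcript that starts 8.54 kb further on, and it also touched the coding gene Erlec1. The 3 Meis1 peaks of Psme4 had strengths of 62.8, 49.6 and 30.8 and lay 40.8, 58.9 and 50.8 kb upstream. No other coding gene lay nearer to any of them than Psme4. Psme3, the nuclear PA28 subunit, had no peak. Of the other genes that the symbol rule takes, Psmc3ip had a Hoxb13 peak of 25.1 across its start, and Psme2b and Psme3ip1 had none.

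**Figure D2:**
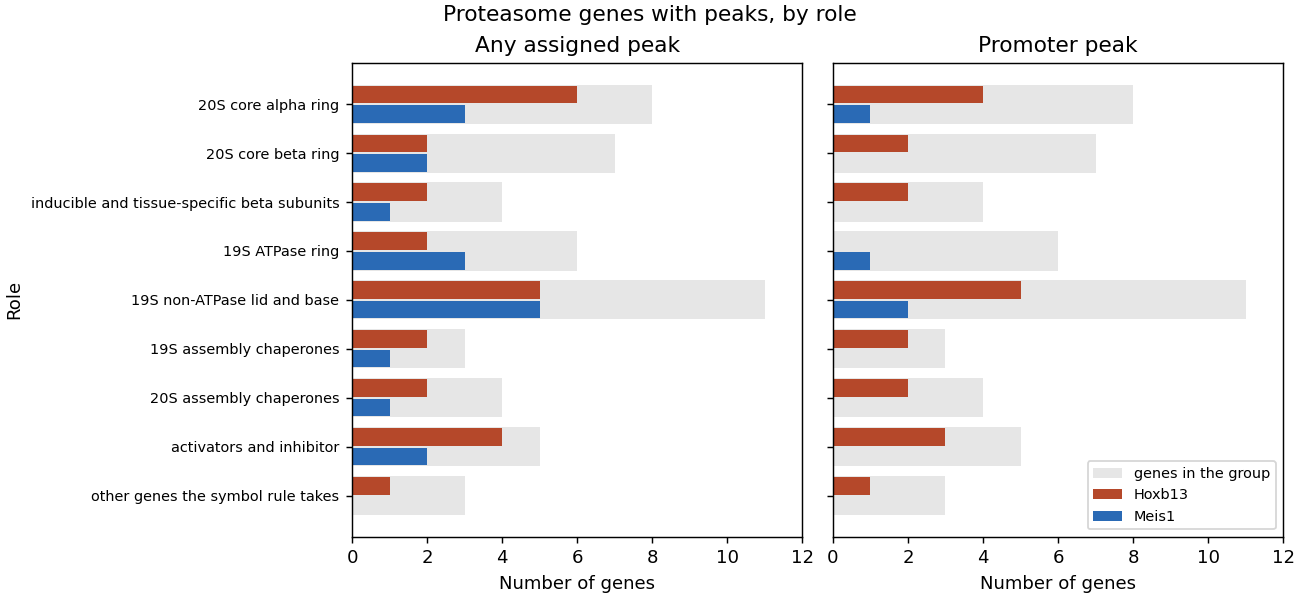
Number of proteasome genes (x axis) with any assigned peak (left panel) and with a promoter peak (right panel), by role (y axis). Grey bars give the genes in each group, red bars those with Hoxb13 and blue bars those with Meis1. The ATPase ring has 0 of 6 genes with a Hoxb13 promoter peak, against 5 of 11 in the lid and base. Over all protein-coding genes, 30.7% have a Hoxb13 promoter peak and 8.16% a Meis1 promoter peak.

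The plot of genes by role shows Hoxb13 promoter peaks in every role but the ATPase ring. Meis1 promoter peaks occurred in the alpha ring, the ATPase ring and the lid and base only. Over all protein-coding genes, 30.7% had a Hoxb13 promoter peak and 8.16% a Meis1 promoter peak. With 3 to 11 genes in a role, no difference between roles or from those shares was tested.

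By position, 24 of the 35 Hoxb13 peaks of members (68.6%) were in the promoter class, beside 40.3% of the whole list. Of the Meis1 peaks, 4 of 27 were (14.8%), beside 6.73%. The median Hoxb13 peak of a member lay 144 bp from a start, against 4.55 kb over the list. For Meis1 the medians were 27.1 kb in members and 58.2 kb in the list. Of the 24 Hoxb13 promoter peaks, 9 touched the start (37.5%), beside 49.5% of all Hoxb13 promoter peaks. Their summits lay upstream in 11 and downstream in 13, at a median distance of 230.5 bp. All 4 Meis1 promoter peaks of members spanned the start, beside 39.7% of all Meis1 promoter peaks, with summits at -138 bp from it at Psmd4 and at 10, 34 and 94 bp after it at Psmd8, Psmc6 and Psma8. The distance plot shows this split, with most Hoxb13 circles in the promoter band and most Meis1 squares outside it.

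Of the 35 Hoxb13 peaks of members, 22 touched the RefSeq model of their own gene (62.9%), 2 touched only another coding gene (5.71%) and 11 touched none. Over all Hoxb13 peaks assigned to protein-coding genes, 64.5% touched their own gene and 6.52% only another. Of the 27 Meis1 peaks of members, 6 touched their own gene (22.2%), 8 only another gene (29.6%) and 13 none. Over all Meis1 peaks assigned to protein-coding genes, the shares were 39.8% and 6.9%. When peaks were limited to 10 kb from the start, 25 members had a Hoxb13 peak (49%, beside 35.8% of all genes) and 8 had a Meis1 peak (15.7%, beside 19.5%).

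Proteasome genes with a peak mostly had 1. This held for 20 of 26 members with Hoxb13 (76.9%), beside 55.4% of all genes with a Hoxb13 peak. It held for 14 of 18 members with Meis1 (77.8%), beside 50.9%. Psma3, Psmb10 and Psmd7 had 3 Hoxb13 peaks each. For Meis1, Psmd7 had 5, and Psmc1 and Psme4 had 3 each.

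In strength, member peaks of Hoxb13 ran from 18.1 to 45.9 with a median of 24.1, and none came near the top of the list at 697. Their median was at percentile 64.8 of the list, but the members' promoter peaks alone were at percentile 66.3, against 68.6 for all Hoxb13 promoter peaks. Proteasome promoter peaks of Hoxb13 thus lay near the median of promoter peaks. Those of Meis1 ran from 15.9 to 93.9 with a median of 22.6, at percentile 70.6. For the 23 Meis1 peaks outside promoters the median percentile was 69.8, against 48.3 for all such peaks. These peaks also differed in position, with a median of 36.2 kb from a start against 68.9 kb. The part of position in their strength was not tested.

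**Figure D3:**
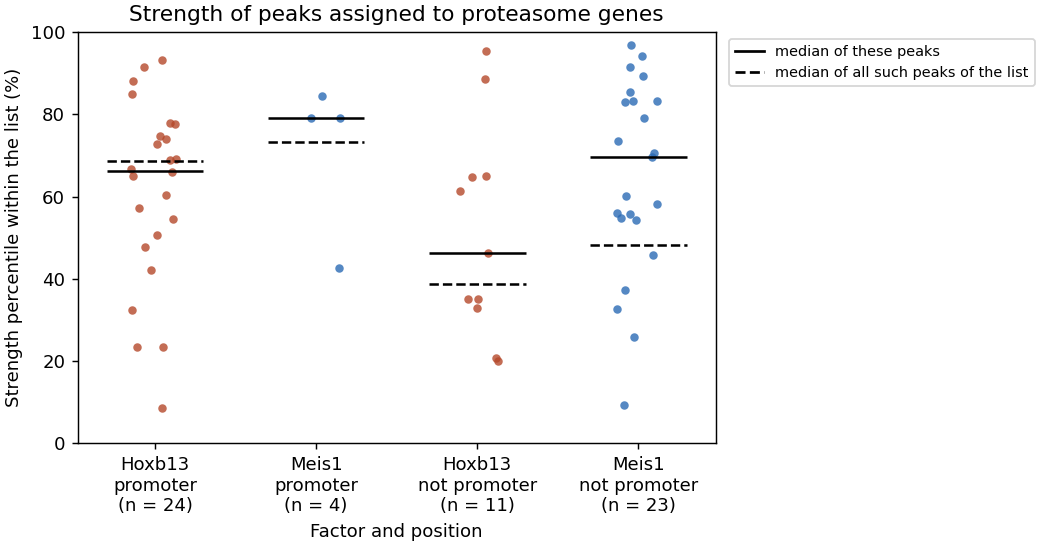
Strength percentile within its own list (y axis) of each peak assigned to a proteasome gene (points), by factor and position (x axis); horizontal scatter has no meaning. Solid lines are the medians of these peaks and dashed lines those of all peaks of the same factor and position, at 66.3 against 68.6 for Hoxb13 promoter peaks and at 69.8 against 48.3 for Meis1 peaks outside promoters. The latter also lay nearer to a start, at a median of 36.2 kb against 68.9 kb.

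Many proteasome genes share their start region with a gene on the opposite strand. Of 43 members with a promoter window, 8 (18.6%) had such a start within 1 kb, beside 9.61% of all genes with a window. They were Psma2, Psma7, Psmb9, Psmc5, Psmd10, Psmd13, Psme2 and Psme3ip1, facing Mrpl32, Ss18l1, Tap1, Ftsj3, Atg4a, Sirt3, Rnf31 and Rspry1 in that order. Psme2 was the 1 of these 8 with an assigned Hoxb13 promoter peak, while 18 of the other 35 members had one (51.4%). Over all genes the shares were 35.8% with such a neighbour and 30.6% without. Each peak is given to 1 gene, so a peak near paired starts counts for only 1 of them. At Psma7 and Psmd13, Hoxb13 peaks that lie beyond the partner's start were assigned to the partner. The part of this assignment in the count of paired members was not tested. Counting any Hoxb13 peak within 1 kb of a RefSeq start, whichever gene it was assigned to, gave 21 of 43 members (48.8%), beside 34.2% of all genes with a window.

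The motifs were searched in the 47 windows of those 43 members and in 21263 windows of all protein-coding genes, on both strands. Windows of Psma8, Psmb1, Psmb2, Psmb7, Psmc3, Psmd3, Psmd7 and Psmg2 were not used here. The ETS cores were more frequent in members: CCGGAAG was in 36.2% of their windows beside 11.6% of all, and GGAAGT in 46.8% beside 24.8%. Both strings match at once where CCGGAAG is followed by T. In windows of at least 10 CpG the shares for CCGGAAG were 40.5% in members and 18.4% in all, and those for GGAAGT were 52.4% and 25.8%. Within members, CCGGAAG was in 29.4% of the 17 windows over a Hoxb13 peak and in 40.0% of the 30 without. No difference between these was tested.

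Of the other motifs, TGACNNNGC was in 12.8% of member windows, beside 13.0% of all, and was found at Psmb5, Psmb6, Psmc6, Psmd9, Psmd12 and Psme4. CCAAT was in 34.0%, beside 38.2%, and TGCGCA, a core of the nuclear respiratory factor 1 site, in 12.8%, beside 9.74%. TGACAG, the Meis core, was in 17% of member windows, beside 18.7% of all and 44.4% of all windows over a Meis1 peak. Of the 3 member windows over a Meis1 peak, that of Psmd8 held it. The Hoxb13 forms CAATAAA and TCGTAAA were each in 1 member window (2.13%), that of Psme1 and that of Psmb6, beside 3.85% and 0.574% of all. The Psme1 match begins at base 16, outside the stretch that its Hoxb13 peak covered, and Psmb6 had no peak. CAATAAA shares letters with CCAAT where it follows a C. TGATNNAT, a Pbx and Hox composite, was in 0 of 47 member windows, beside 7.45%. In windows of at least 10 CpG it was in 0 of 42 member windows, beside 2.9% of all such windows. The part of CpG content in this difference was not tested.

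**Figure D4:**
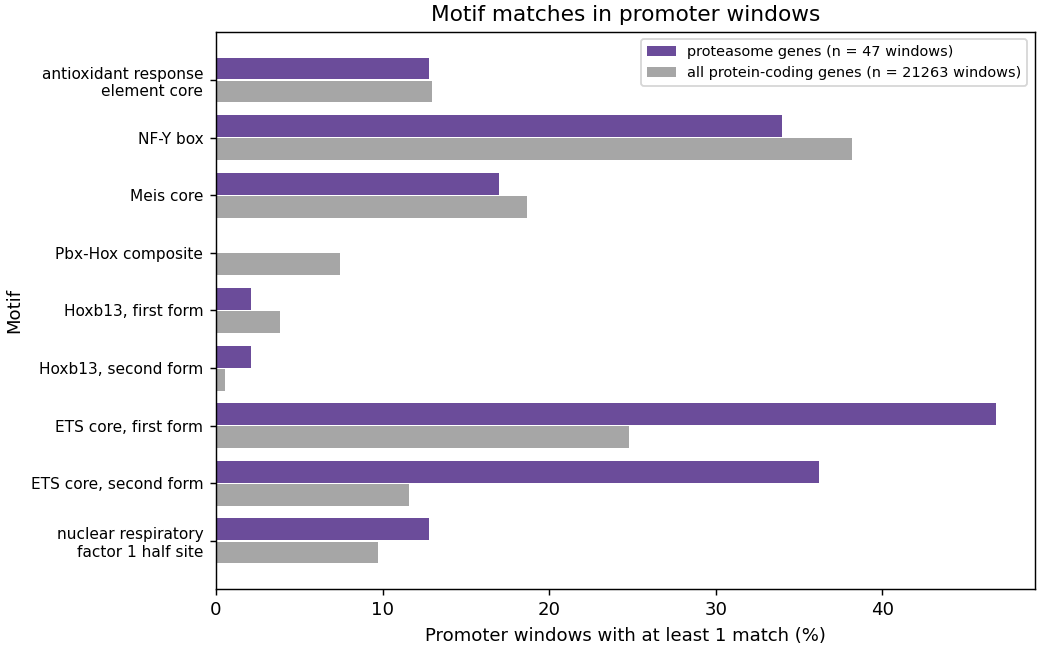
Share of promoter windows with at least 1 match to each motif (x axis, percent), for the 47 windows of proteasome genes (purple) and 21263 windows of all protein-coding genes (grey). The ETS cores are higher in proteasome genes, at 46.8% against 24.8% and 36.2% against 11.6%, and TGATNNAT is in 0% against 7.45%. Among all windows of at least 10 CpG, which are not drawn apart, TGATNNAT is in 2.9%.

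Set beside other large families of genes that every cell uses, the proteasome genes had fewer Hoxb13 promoter peaks than the cytosolic ribosomal protein genes, of which 59 of 83 had one (71.1%). Their share of 41.2% was close to the 34 of 78 mitochondrial ribosomal protein genes (43.6%). With Meis1, 35.3% of proteasome genes had a peak, against 19.3% of cytosolic and 26.9% of mitochondrial ribosomal protein genes. Over all genes it was 38.2%. Meis1 promoter peaks were at 7.84% of proteasome genes, against 4.82% of cytosolic and 11.5% of mitochondrial ones. Overlapping peaks of both factors were at 3.92%, against 3.61% and 10.3%. The order of the families for Meis1 thus depended on the count used. These differences were not tested.

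The genes around the proteasome in the pathway were counted from 6 lists, of which 90 of 91 symbols matched a gene. Of these 90 genes, 65 had a Hoxb13 promoter peak (72.2%) and 14 had a Meis1 promoter peak (15.6%), against 41.2% and 7.84% of the proteasome genes and 30.7% and 8.16% of all genes. The lists were chosen with earlier results of these data known, so their counts are a description, and each is to be read beside those last shares. Among regulators of proteasome genes, 8 of 12 had a Hoxb13 promoter peak and none had one of Meis1. The strongest were Nfyc (82.9) and Nfya (43.0), subunits of NF-Y, and Nfe2l1 (43.7), the inducer of proteasome genes. Irf1, which induces immunoproteasome genes, had the strongest Meis1 peak of that list (25.8), followed by Nrf1 (23.3). Among proteasome parts and assembly factors outside the Psm names, 7 of 11 had a Hoxb13 promoter peak and 2 one of Meis1. Adrm1, a ubiquitin receptor of the cap, had one of 62.1, Pomp, the maturation factor of the core, one of 58.4, and Ecpas, an adaptor and scaffold, one of 40.3. Sem1, a lid subunit, had 5 Meis1 peaks up to 78.5 and no Hoxb13 peak, and Akirin2, which imports proteasomes into the nucleus, had a Meis1 promoter peak of 44.3.

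Ubiquitin, E1 and E2 genes had Hoxb13 promoter peaks in 15 of 20 and Meis1 promoter peaks in 1. The E2 gene Ube2g1 had a Hoxb13 promoter peak of 50.2, and the ubiquitin gene Ubb had one of 47.5. The E2 gene Ube2e1 had a Meis1 peak of 29.9 outside its promoter. Shuttle factors and p97 genes had Hoxb13 promoter peaks in 12 of 16 and Meis1 promoter peaks in 4. Vcp, which encodes p97, had a Hoxb13 promoter peak of 48.2 and Ubxn1 one of 44.2. The strongest Meis1 peaks of these genes were those of Zfand5 (85.3), 57.6 kb from its start, and of Zfand2b (63.2), at its promoter. Ubiquitin ligases known from heart muscle had Hoxb13 promoter peaks in 17 of 20 and Meis1 promoter peaks in 7, led by Nedd4 (46.4), Cblb (41.2) and Fbxl22 (39.1) for Hoxb13. By the strongest Meis1 peak at any position, Asb2 (294, in an intron) and Trim55 (196, at the promoter) led. Both were above the strongest Meis1 peak of a proteasome gene (93.9). The strongest Meis1 promoter peak of Asb2 was 91.7. Antigen processing partners of the immunoproteasome had Hoxb13 promoter peaks in 6 of 11, led by Canx (57.0), B2m (33.0) and Calr (32.2), and no Meis1 peak.

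As to the tissue, the lists hold no expression and cannot check the label by transcripts. Of 10 heart muscle genes, all had a Hoxb13 peak and 9 had a Meis1 peak, beside 44.4% and 38.2% of all genes, led by promoter peaks at Atp2a2 (62.1), Myl2 (44.3) and Myh6 (42.5) for Hoxb13 and by peaks at Myl2 (540) and Ryr2 (382) for Meis1. Whole ventricles were used, so the cell type behind a peak cannot be told apart.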

How the data were processed

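Chromatin of CD-1 mouse ventricles was precipitated with antibodies to Hoxb13 and to Meis1 in 3 libraries each, with 3 input libraries per factor. The submitters' processing notes name build mm10 and the tools deepTools 1.6, ChIPseeker, Picard and Bowtie2 2.2.3, without a role or order. How peaks were called and libraries combined is not given in the sources used here. For each factor the authors deposited 1 annotated peak list. Per the file headers, each peak has a position, a class, a distance to a start site and an assigned gene. The deposited signal value, called strength, has only a column number in the headers and was used to rank peaks within a list. The deposited score, also without a name, was not used further. Other deposited values were widths, summit offsets and distances in bp. Most Hoxb13 peaks were 396 bp wide (98.8%) and most Meis1 peaks 284 bp (95%), so Hoxb13 peaks overlap a given site more easily. Promoter peaks lay at most 999 bp (Hoxb13) and 997 bp (Meis1) from a start site.

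Gene identifiers were matched to a RefSeq table of GRCm38.p6, the assembly of mm10, for 10969 of 10981 genes of the Hoxb13 list and 9830 of 9840 of the Meis1 list. A gene counted once if it had at least 1 assigned peak. Counts were made in Python 3.11.15 with pandas 2.3.3, and the interval and motif code was tested on simulated data. Values are given in full for the 10 members with the strongest Hoxb13 promoter peak, the 10 with the strongest Meis1 peak, those with overlapping or several peaks, and up to 3 and 2 genes of each pathway list by their strongest Hoxb13 promoter and Meis1 peaks. The members and lists were chosen with earlier results of these data known. Alternatives were other peak strengths, assignments, promoter widths, overlap rules and gene sets. Inputs entered no comparison, and no test was possible with 1 list per factor. Of the pathway genes taken by their strongest peaks, 2 are not reported here.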

Additional observations from a re-analysis of the deposited data

How the results depend on the processing

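Of 46 alternative values, 32 stayed within 1.5 times the reported count, or within the 95% interval of the median percentile, and 14 did not. That interval runs over the peaks of members, not over hearts, and the alternative medians use parts of those same peaks. Taking the same number of strongest peaks per factor left the shorter Hoxb13 list whole, so its counts were bound to stay. The rule compares counts of members only, not their share beside all genes. With the strongest 10% of each list, members with a peak fell to 2 for Hoxb13 and 2 for Meis1. Each was 3.92% of members, beside 8.32% of all genes for Hoxb13 and 9.05% for Meis1. Members with a promoter peak fell to 2 and 0, beside 6.58% and 1.44% of all genes. Those with both factors fell to 0 (1.55% of all genes) and those with an overlap to 0 (0.27%). Peaks within 10 kb of the start gave 8 members with Meis1 (15.7%, beside 19.5% of all genes) and 5 with both factors (9.8%, beside 10.3%). Peaks in or within 1 kb of the gene model gave 8 with Meis1 (15.7%, beside 28.2%) and 4 with both factors (7.84%, beside 18.4%). A reciprocal overlap of 50% gave 0 members (2.8% of all genes), and summits at most 100 bp apart gave 0 (2.23% of all genes). Among genes no longer than the median, a set chosen after seeing the data, 12 members had a Hoxb13 promoter peak (36.4%, beside 23.1% of all such genes). A Meis1 promoter peak was found at 2 of its members (6.06%, beside 5.93%). The set holds 33 members against 51. Fewer peaks, pairs or genes enter these counts by construction, except those by the gene model, for which the cause was not tested. The Hoxb13 promoter share stayed above that of all genes except with the strongest 10% of peaks (3.92% of members, 6.58% of all genes) and among genes with a CpG-rich window (45% and 47.6%). No paired analysis was possible because each factor has 1 list over its 3 libraries and no result comes from a test. For the same reason no replicate could be left out. Depth is unknown, so an absent peak does not show that a factor was absent.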

Other observations

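A search made after the Psma3 peaks were seen beside a tRNA gene gave these values. Of the 35 Hoxb13 peaks of proteasome genes, 3 lay within 1 kb of a RefSeq tRNA gene, against 62 of all 22284 (0.278%). The 3 were the upstream pair at Psma3 and the promoter peak of Psmb3. The Psma3 pair had prompted the search, and its peaks overlap each other by 195 bp. Of the Meis1 peaks, 0 of the 27 of proteasome genes did, against 15 of 30534 (0.0491%). Counted over the 408 tRNA genes of the table, 79 had a Hoxb13 peak within 1 kb (19.4%) and 19 had a Meis1 peak (4.66%). A shared peak counts for each tRNA gene near it, and tRNA genes occur in clusters. The part of the tRNA genes in the Psma3 and Psmb3 peaks was not tested.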
